A study of Mus musculus with 10 samples.

Results

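Potassium channel genes were examined in brain endothelial cells (BECs) of the mouse cortex. The group was formed by symbol, as the protein-coding genes whose GENCODE M21 name begins with Kcn or Hcn, with 1 further Kcn gene left out by that rule. Of 97 such genes in the annotation, 28 were among the 14106 genes of the deposited table, and the other 69 were not analysed here. The 28 genes had been selected by the study's own filter on weakly expressed genes, and the family was picked for description with earlier results of the same comparison known. Counts over the group below are therefore descriptions, and they carry no test of the group.

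The libraries came from 1 year old female mice. APP/PS1 mice carry 2 transgenes linked to familial Alzheimer's disease, a chimeric mouse and human amyloid precursor protein with the Swedish mutations (Mo/HuAPP695swe) and presenilin 1 lacking exon 9 (PS1ΔE9). According to the paper both are expressed ubiquitously, so the transgenes were not restricted to the vessel wall. Controls were age-matched females of the same C3H/BL6 background, labelled WT. Each group had 5 libraries of BECs that were enriched from cortex with CD31 microbeads, were CD45-, and had passed a myelin removal step. Whether a library was 1 mouse or a pool was not stated, so an SD below is the spread between libraries. Values are log2 CPM, counts scaled to a common library size, after the authors' correction for batch, and the adjusted counts behind a library summed to between 22371766 and 126686149, with the replicate 1 libraries lowest in both groups. All 15 of 15 endothelial markers were detected, with a median level of 10.20 log2 CPM. Of the 15, 12 had a higher mean in APP/PS1, with a list median of 0.04 in log2 fold change, as had 6798 of all 14106 genes. In the limma fit described below, 0 of the 15 had an unadjusted p under 0.05.

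Libraries were paired by replicate number, since the study's batch plot placed 1 library of either genotype in each of 5 batches. The sample labels give 4 batches instead, with replicates 4 and 5 in the same one. After the batch correction, the mean of a pair was almost the same in all 5 pairs for most genes. Over all genes the median SD of the pair mean was 0.00353 log2 units, against 0.173 for the difference within a pair. For 17 of the 28 genes the pair means spanned less than 0.1 log2 units, so that the 2 libraries of a pair were near mirror images around the gene's mean. The widest spans were those of Kcnip4 (2.79), Kcna2 (1.72) and Kcnj16 (1.13). The comparison rests on 5 differences for each gene, APP/PS1 minus control. Genes were compared with the linear model of limma with a term for genotype and a term for the pair. Adjusted p-values are those of Benjamini and Hochberg across all 14106 genes.

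Potassium channels let K+ leave or enter the cell along its gradient and so set the resting membrane potential. In brain capillaries, inward rectifier channels of the endothelium open when neurons release K+, and the hyperpolarisation travels upstream and relaxes arterioles. Calcium-activated channels of the endothelium and of smooth muscle tie the membrane potential to intracellular calcium, whereas astrocyte end-feet around the vessel take up K+ through their own inward rectifiers. Axons and neuronal cell bodies use voltage-gated channels to end the action potential.

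The shared part of the pore-forming proteins is the selectivity filter, a short loop that binds dehydrated K+. It was searched as threonine or cysteine, any residue, glycine, tyrosine or phenylalanine, and glycine, following each other. The coding bases of this motif were found in the longest coding sequence of 20 of 28 genes, and in 290 of 21584 protein-coding genes searched (1.34%). They are printed for 9 genes so that channels on which the comparison turned can be told from their relatives. Each run shows coding bases 5′ to 3′, with the 15 bases of the filter in capitals and 6 bases of flank on each side, from GENCODE M21 on GRCm38 (mm10).
Kcnj2 (chr11:111072207-111072221, + strand): cagacaACCATTGGCTATGGTttcagg
Kcnj10 (chr1:172369302-172369316, + strand): cagaccACCATCGGCTATGGCttccgc
Kcnk1 (chr8, + strand, split by an intron): ctctccACCACAGGCTATGGCcacacg
Kcnk6 (chr7, - strand, split by an intron): gtcaccACCGTGGGCTATGGCtacacg
Kcna2 (chr3:107105224-107105238, + strand): atgacaACTGTAGGCTATGGAgacatg
Kcna5 (chr6:126533745-126533759, - strand): atgaccACTGTAGGCTACGGGgacatg
Kcna6 (chr6:126738647-126738661, - strand): atgaccACGGTAGGTTATGGGgacatg
Kcnma1 (chr14:23528413-23528427, - strand): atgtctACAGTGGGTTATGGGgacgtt
Kcnt1 (chr2:25894367-25894381, + strand): ttctcaACTGTGGGCTTCGGTgatgtg
The inward rectifiers Kcnj2 and Kcnj10 carried ACC as the first filter codon, as did Kcnk1 and Kcnk6, and Kcnt1 carried the phenylalanine codon TTC at the fourth. Kcnk3 and Kcnk5, whose proteins carry pore loops in tandem, held 2 matches each, and are not printed. Kcnk1 and Kcnk6 belong to the same tandem-pore class and held 1 match each, so matches do not count pore loops. The 6 auxiliary subunits, which form no pore, held none. Kcnh7 and Kcnn3, which are pore subunits, also held none. A filter that begins with another residue would be missed by this search.

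Levels were set side by side between genes only after division by the exonic length in kb. On that scale Kcnj2, the inward rectifier of the capillary endothelium (Kir2.1), stood highest, at 3.57 ± 0.12 log2 CPM per kb (SD, n = 10), above 72.4% of all genes of the table. Hcn2, a cation channel opened by hyperpolarisation, followed at 3.24 ± 0.06. Kcna5, a voltage-gated channel known from vascular muscle, came next at 2.76 ± 0.18. Kcnq1 at 2.46 ± 0.05 and Kcnk6 at 2.43 ± 0.14 were neighbours that did not differ beyond their spread over libraries. Kcne4, a regulatory subunit, reached 1.57 ± 0.55 and Kcnn4 0.02 ± 0.26. Kcnt2 at -0.55 ± 0.15 and Kcnd3 at -0.61 ± 0.21 stood at ranks 9 and 10 and also overlapped. At the other end stood Kcnma1, at -4.94 ± 0.48, and Kcna2, at -4.67 ± 1.40. The exonic length of Kcnma1 is a union over many annotated transcripts and comes to 16976 bases, which lowers its value per kb if a shorter transcript is used.

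**Figure D1:**
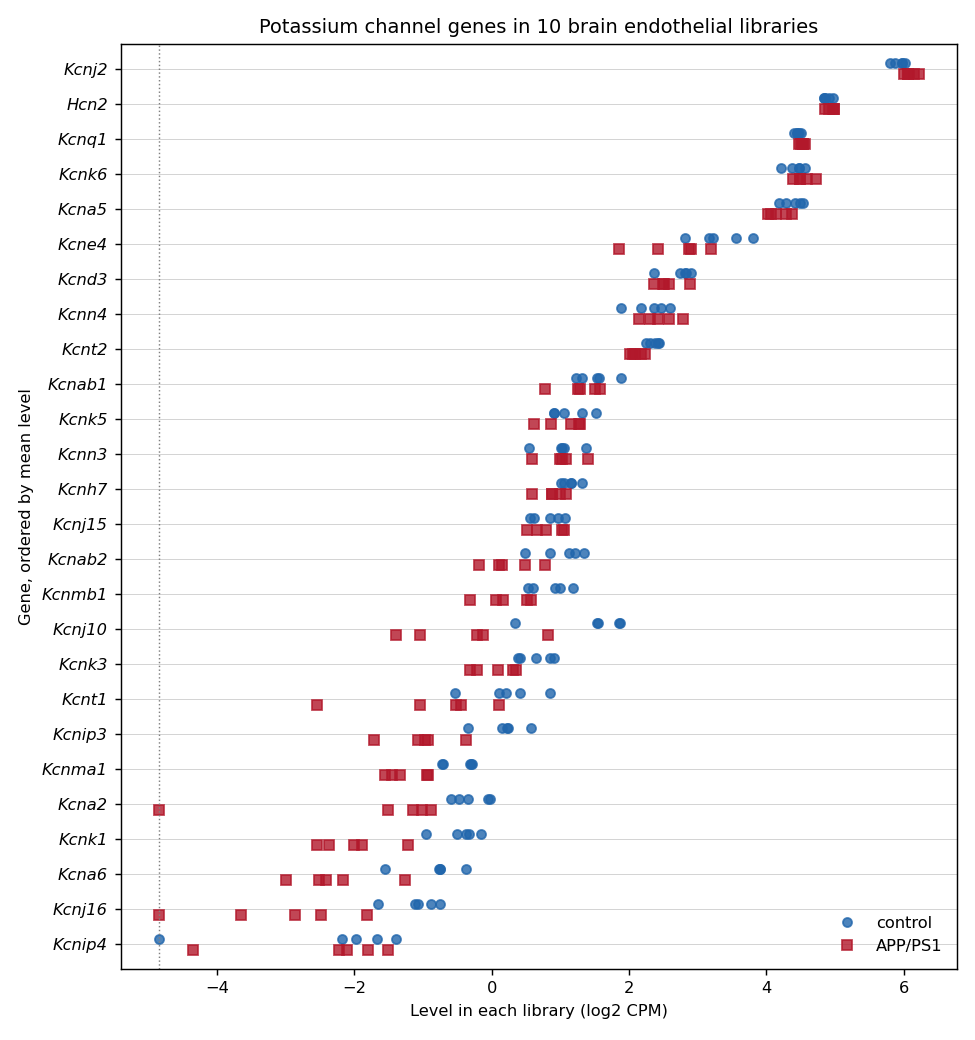
Level of 26 of the 28 potassium channel genes in log2 CPM (horizontal axis) in every library, with controls as blue circles and APP/PS1 as red squares, genes ordered by mean level; the dotted line at -4.85 is the value of an adjusted count of 0. The 2 groups overlap for Kcnj2, Hcn2, Kcnq1 and Kcnk6 at the top, whereas several genes below 1 log2 CPM, among them Kcnk1 and Kcnj16, show APP/PS1 libraries below all controls.

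In APP/PS1 BECs, 21 of the 28 genes had a lower mean than in controls, whereas 51.8% of all genes did. The median log2 fold change over the 28 genes was -0.29, against -0.0038 over all genes. The lower means were led by Kcnj16, Kcnj10, Kcna2, Kcnk1, Kcna6, Kcnip3 and Kcnt1, each by over 1 log2 unit, whereas 1.42% of all genes were lower by that much. None of the 28 was higher by over 1 log2 unit, as 0.404% of all genes were.

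With limma, 0 of the 28 genes passed an adjusted p of 0.05, and 0 (0%) of all genes did. The smallest adjusted p of the group was 0.423, for Kcnk1, and that over all genes was 0.195. Before adjustment, 11 of the 28 had a p under 0.05 with a lower mean in APP/PS1, as did 5.91% of all genes, and 0 with a higher mean, as did 2.13% of all genes. The 11 became 7 without replicate 1, where 3.67% of all genes were lower at that p. Voom, which weights each value by its precision and kept the pair as a block, also called 0 of the 28 and gave 10 lower and 1 higher at an unadjusted p under 0.05, against 4.98% and 2.28% of all genes by voom. Without the pair as a block, 5 of the 28 (Kcnk1, Kcnma1, Kcnt2, Kcnip3 and Kcna6) had an adjusted p under 0.05 by limma, between 0.0123 and 0.039, as had 4.59% of all genes. At an unadjusted p under 0.05 that fit gave 17 of the 28 lower, against 13% of all genes. It counts 8 residual degrees of freedom where the corrected values leave 4.

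In 7 of the 28 genes the APP/PS1 library was lower in all 5 pairs, where 5% of all genes were, and 0 were higher in all 5, where 2.99% of all genes were. The same 7 (Kcnj16, Kcna2, Kcnk1, Kcnip3, Kcnma1, Kcnk3 and Kcnt2) had groups that did not overlap, with every APP/PS1 library below every control, where 4.96% of all genes had. Without replicate 2 there were 12 members lower in all 4 remaining pairs, as were 13.3% of all genes. In the opposite direction no member was without overlap, where 2.91% of all genes were. Because the pair means are close for most genes, the count of pairs and the absence of overlap are nearly the same measure. An exact sign-flip test over 5 pairs cannot go below 0.0625, so none was run for single genes.

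**Figure D2:**
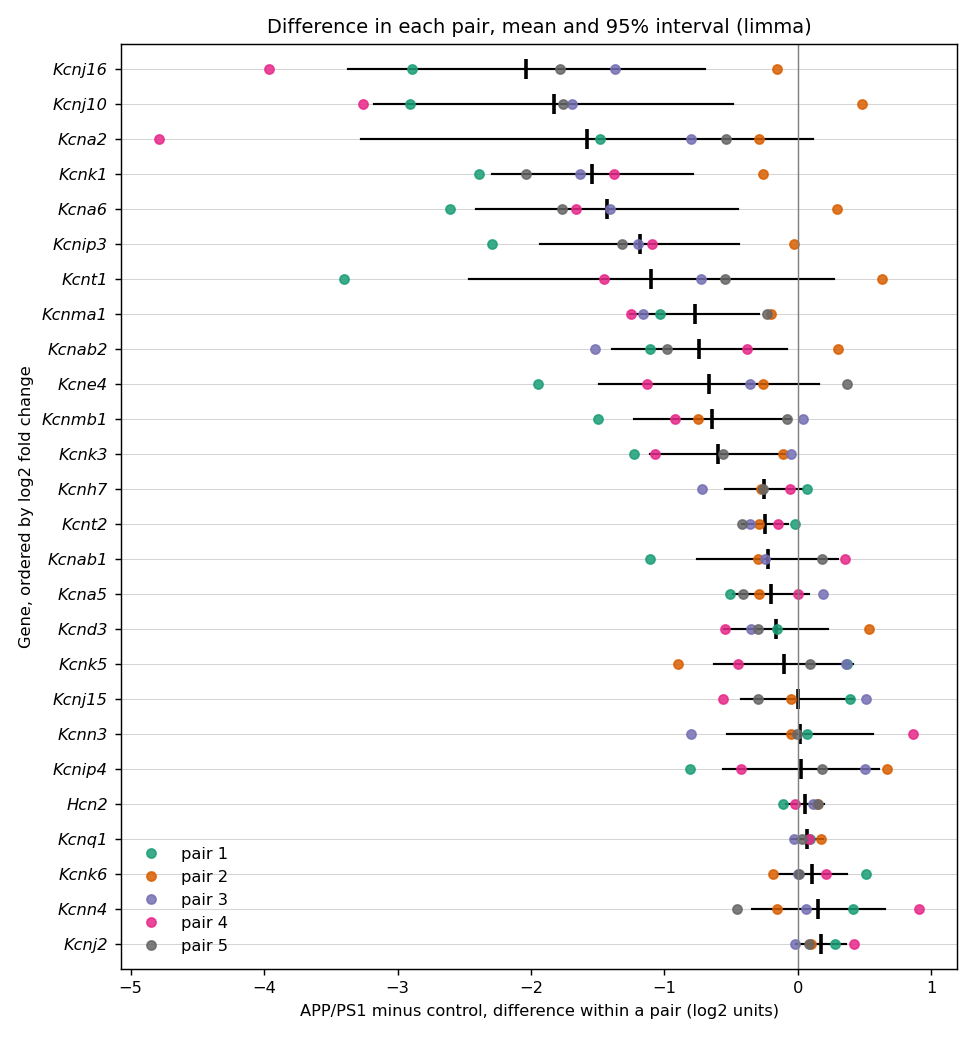
Difference within each pair, APP/PS1 minus control in log2 units (horizontal axis), for 26 of the 28 genes ordered by log2 fold change; coloured points are pairs 1 to 5, the black bar is the mean and the line its 95% interval from limma. Pair 2 (orange) has no point beyond 1 log2 unit on either side of 0, and pairs 1 and 4 hold the lowest points of the genes at the top.

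Among the 4 inward rectifiers, Kcnj10 and Kcnj16 had lower means in APP/PS1 and Kcnj2 a slightly higher one. The class median was -0.92 in log2 fold change. Kcnj10 encodes Kir4.1, the glial channel that buffers K+ at end-feet, and Kcnj16 encodes Kir5.1, a partner that is silent alone and joins Kir4.1 in mixed channels. Kcnj16 measured -0.75, -1.65, -1.12, -0.89 and -1.08 log2 CPM in controls 1 to 5, and -3.65, -1.81, -2.49, -4.85 and -2.86 in APP/PS1 1 to 5. All 5 APP/PS1 libraries lay below the lowest control, and library 4 of APP/PS1 held an adjusted count of 0 against 56 in its paired control. This gave a log2 fold change of -2.03 ± 0.54 (SE, 5 pairs, adjusted p = 0.537), a level 4.10-fold lower. With a much smaller prior count than that of the deposited values it moved to -3.17, since library 4 was at 0.

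Kcnj10 measured 1.87, 0.34, 1.55, 1.86 and 1.54 log2 CPM in controls 1 to 5, and -1.04, 0.82, -0.13, -1.40 and -0.22 in APP/PS1 1 to 5. Pair 2 alone went the other way, with control 2 far below the other controls, so the groups overlapped. Its log2 fold change was -1.83 ± 0.54 (adjusted p = 0.563), and the 4 other pairs ran from -3.26 to -1.69. Kcnj2 measured 5.88, 5.97, 6.02, 5.80 and 5.98 in controls and 6.15, 6.06, 6.01, 6.23 and 6.06 in APP/PS1. It was higher in 4 of 5 pairs, and its groups overlapped through pair 3. Its log2 fold change of 0.17 ± 0.08 (adjusted p = 0.666) had a 95% interval from -0.02 to 0.36. Kcnj15, which encodes Kir4.2, differed by -0.0025 ± 0.17, with 3 pairs lower and 2 higher. On chromosome 11, Kcnj16 (110968033 to 111027968) and Kcnj2 (111066164 to 111076821) are neighbours on the + strand, and their differences had opposite signs in 4 of 5 pairs.

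The 4 tandem-pore channels (K2P), which pass background K+ current at rest, showed a class median of -0.35 in log2 fold change. Kcnk1 (TWIK1) and Kcnk3 (TASK1, closed by extracellular acid) were lower in all 5 pairs, whereas Kcnk6 (TWIK2) and Kcnk5 (TASK2) were close between groups. Kcnk1 measured -0.16, -0.96, -0.37, -0.51 and -0.33 log2 CPM in controls 1 to 5 and -2.55, -1.22, -2.00, -1.89 and -2.37 in APP/PS1 1 to 5. The highest APP/PS1 library and the lowest control were those of pair 2, with a difference of -0.26, and the other 4 pairs ran from -2.39 to -1.38. Kcnk1 had the smallest SE relative to its log2 fold change of the group, -1.54 ± 0.31 (adjusted p = 0.423), a level 2.91-fold lower, on adjusted counts between 3 and 94.

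Kcnk3 measured 0.91, 0.42, 0.39, 0.85 and 0.64 in controls and -0.32, 0.31, 0.35, -0.22 and 0.09 in APP/PS1. The groups did not overlap but touched in pairs 2 and 3, where the differences were -0.11 and -0.05. Kcnk3 had a log2 fold change of -0.60 ± 0.20 (adjusted p = 0.571). Kcnk6 measured between 4.21 and 4.57 in controls and between 4.39 and 4.72 in APP/PS1, with a log2 fold change of 0.11 ± 0.11 and a 95% interval from -0.15 to 0.37. Kcnk5 differed by -0.11 ± 0.21, with an interval from -0.63 to 0.41, and was lower in 2 of 5 pairs.

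Among the 8 voltage-gated pore subunits, 7 had a lower mean in APP/PS1, and the class median was -0.29 in log2 fold change. Kcna2 and Kcna6, which form channels of the Kv1 family along axons, had the largest differences of the class. Kcna2 measured -0.03, -0.59, -0.34, -0.06 and -0.48 log2 CPM in controls 1 to 5 and -1.51, -0.88, -1.15, -4.85 and -1.02 in APP/PS1 1 to 5. Library 4 of APP/PS1 was at an adjusted count of 0, against 102 in control 4, and the groups did not overlap. Kcna2 had a log2 fold change of -1.58 ± 0.69 (adjusted p = 0.661). It was -0.78 without replicate 4 and -2.53 with the smaller prior count, so its size rests on that library.

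Kcna6 measured -0.38, -1.55, -0.76, -0.75 and -0.75 in controls and -3.00, -1.26, -2.17, -2.41 and -2.52 in APP/PS1. Pair 2 was higher in APP/PS1 by 0.29, and the other 4 pairs ran from -2.61 to -1.41. For Kcna6 the log2 fold change was -1.43 ± 0.40 (adjusted p = 0.550). Its neighbour on the - strand of chromosome 6, Kcna5 (126532551 to 126535412, against 126708329 to 126740674 for Kcna6), measured between 4.18 and 4.53 in controls and between 4.02 and 4.37 in APP/PS1. Kcna5 differed by -0.20 ± 0.12, with an interval from -0.49 to 0.08, and was lower in 3 pairs.

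Kcnd3 (Kv4.3, an A-type channel) differed by -0.17 ± 0.16 and Kcnh7 (an Erg channel) by -0.25 ± 0.12, each lower in 4 of 5 pairs. Kcnd3 went to -0.34 without replicate 2 and -0.07 without replicate 4, and Kcnh7 to -0.13 without replicate 3. Kcnq1 (Kv7.1) measured between 4.40 and 4.51 in controls and between 4.47 and 4.57 in APP/PS1, a log2 fold change of 0.07 ± 0.05 with an interval from -0.05 to 0.19. The antisense gene Kcnq1ot1 overlaps Kcnq1 and is also in the table, as are overlapping genes on the strand opposite Kcnh7, Kcnab2 and Kcnip4. The strand setting of the counting is not given in the sources used here, so reads of such partners cannot be told apart.

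Of the 5 channels gated by calcium or sodium, Kcnma1 and Kcnt2 were lower in all 5 pairs, and Kcnn3 and Kcnn4, the calcium-activated channels of endothelium, were not. Kcnma1 encodes the pore of the BK channel, which in arterioles opposes contraction of smooth muscle. It measured -0.31, -0.73, -0.29, -0.30 and -0.71 log2 CPM in controls 1 to 5 and -1.34, -0.93, -1.45, -1.55 and -0.94 in APP/PS1 1 to 5. Pairs 2 and 5 differed by -0.20 and -0.23 and the other 3 ran from -1.25 to -1.03, with no overlap between groups. In log2 fold change Kcnma1 differed by -0.77 ± 0.20 (adjusted p = 0.537).

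Kcnt2 (Slick, a sodium-activated channel) measured 2.25, 2.38, 2.42, 2.31 and 2.44 in controls and 2.23, 2.09, 2.06, 2.17 and 2.02 in APP/PS1. The difference was small in each pair, from -0.42 in pair 5 to -0.02 in pair 1. Kcnt2 had a log2 fold change of -0.25 ± 0.07 (adjusted p = 0.554). Its relative Kcnt1 (Slack) was far more uneven, at -3.40 in pair 1 and 0.63 in pair 2. For Kcnt1 the log2 fold change was -1.10 ± 0.55 (adjusted p = 0.728), and -0.52 without replicate 1, whose APP/PS1 library held 3 adjusted counts.

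Kcnn3 (SK3) measured 1.01, 1.05, 1.38, 0.54 and 1.03 in controls and 1.08, 1.00, 0.59, 1.40 and 1.02 in APP/PS1. Pairs 3 and 4 went in opposite directions, at -0.80 and 0.86, and the mean difference was 0.01 ± 0.22, with an interval from -0.53 to 0.56. Kcnn4 (the intermediate-conductance channel IK1) measured 2.17, 2.47, 2.36, 1.88 and 2.60 in controls and 2.58, 2.31, 2.42, 2.79 and 2.14 in APP/PS1. Its difference was 0.15 ± 0.20, with an interval from -0.34 to 0.65, and its pairs ran from -0.46 to 0.91. The intervals of Kcnn3 and Kcnn4 reach well to either side of 0, so these 5 pairs do not show that their levels were equal.

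Hcn2, the one member of its family in the table, measured 4.97, 4.84, 4.86, 4.92 and 4.84 log2 CPM in controls and 4.86, 4.98, 4.97, 4.91 and 4.99 in APP/PS1. Hcn2 carries a mixed Na+ and K+ current and is best known from pacemaking in heart and brain. Its difference of 0.05 ± 0.06 had an interval from -0.09 to 0.19, with adjusted counts between 641 and 3539 a library.

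The 6 auxiliary subunits, which bind to pore subunits and alter their gating or transport, showed a class median of -0.65 in log2 fold change, and 5 of the 6 had a lower mean in APP/PS1. Kcnip3, also called calsenilin for its binding to presenilins, is a calcium sensor and a partner of Kv4 channels. It measured 0.58, -0.34, 0.23, 0.15 and 0.24 log2 CPM in controls 1 to 5 and -1.71, -0.37, -0.97, -0.93 and -1.08 in APP/PS1 1 to 5. Pair 2 differed by -0.03, so the absence of overlap is narrow there, and the other pairs ran from -2.29 to -1.09. Kcnip3 had a log2 fold change of -1.18 ± 0.30 (adjusted p = 0.537).

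Kcnab2, a cytoplasmic subunit of Kv1 channels, measured 1.21, 0.48, 1.34, 0.85 and 1.13 in controls and 0.10, 0.78, -0.18, 0.48 and 0.15 in APP/PS1. Again only pair 2 was higher in APP/PS1, and the log2 fold change was -0.74 ± 0.27 (adjusted p = 0.588). Kcnab1, its relative, differed by -0.23 ± 0.21, and by -0.00 to 2 decimals without replicate 1. Kcnmb1, the BK subunit of smooth muscle, measured 1.18, 0.92, 0.53, 0.99 and 0.60 in controls and -0.32, 0.17, 0.57, 0.07 and 0.51 in APP/PS1. It was lower in 4 of 5 pairs, with pairs 3 and 5 near 0 at 0.04 and -0.08. Its log2 fold change was -0.64 ± 0.24 (adjusted p = 0.594).

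Kcne4, a single-span subunit that inhibits Kcnq1 channels, measured 3.80, 3.17, 3.23, 3.56 and 2.82 in controls and 1.85, 2.91, 2.87, 2.42 and 3.19 in APP/PS1. The pairs ran from -1.95 to 0.37, with pair 5 higher in APP/PS1. On average the log2 fold change of Kcne4 was -0.67 ± 0.33 (adjusted p = 0.726), and it was -0.35 without replicate 1 and -0.44 by voom. Kcnip4, the lowest member by level before division by length, had 0 to 33 adjusted counts a library and differed by 0.02 ± 0.24, or by 0.60 with the smaller prior count and 0.20 by voom. Its replicate 3 libraries stood apart in both groups, at an adjusted count of 0 in the control and 1 in APP/PS1.

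The members were also counted by level, with a split at a mean of 1 log2 CPM over all 10 libraries that was made after the values were seen. Of the 14 genes under 1, 13 had a lower mean, 9 had an unadjusted p under 0.05 and 6 were lower in all 5 pairs. Over the 1916 genes of the table at that level, these shares were 56.9%, 15.4% and 9.19%. The median log2 fold change of the 14 was -0.94, against -0.05 over the 1916. The mean includes the APP/PS1 libraries, and Kcnj10 and Kcnab2, with control means of 1.43 and 1.00, were under 1 through them. Of the 14 genes with a mean of at least 1, 8 had a lower mean and 2, among them Kcnt2, an unadjusted p under 0.05, and their median was -0.14. Of the 12190 genes of the table at that level, 6217 had a lower mean. At that p, 537 of the 12190 were lower, and their median log2 fold change over all 12190 was -0.0019. Summed over the 28 genes, the level was 226.1 to 236.2 CPM in controls and 217.5 to 225.7 in APP/PS1, adjacent ranges without overlap. The 14 genes with a mean of at least 1 made up most of these sums. Their own ranges overlapped, at 208.8 to 216.2 CPM in controls and 207.4 to 217.5 in APP/PS1. Sums of the 14 genes under 1 were 12.83 to 20.66 CPM in controls and 7.62 to 12.81 in APP/PS1. How often sums over other genes fail to overlap was not examined.

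**Figure D3:**
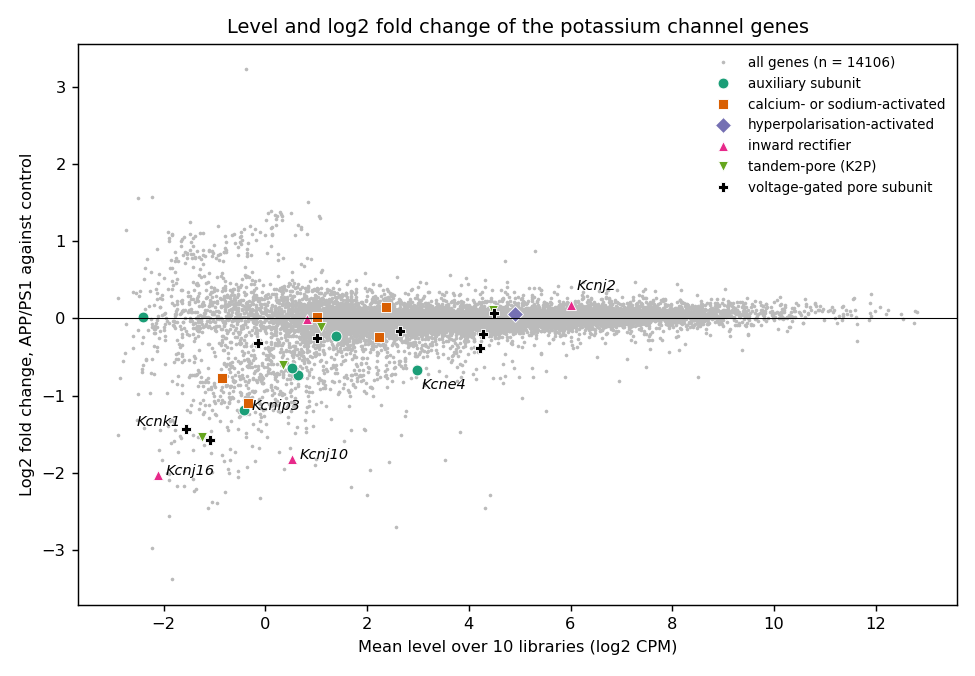
Mean level over 10 libraries in log2 CPM (horizontal axis) against log2 fold change, APP/PS1 against control (vertical axis), with each of 14106 genes as a grey dot and the 28 potassium channel genes marked by class. Members with a mean above 4 log2 CPM lie nearer 0 than many weaker ones, while members below -1 on the vertical axis all have a mean under 1.

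Markers of other cell types of the vessel wall and the brain differed between groups in these libraries too. All 10 of 10 mural markers (pericytes and smooth muscle) had a lower mean in APP/PS1, with a list median of -0.76 in log2 fold change, 9 at an unadjusted p under 0.05 and 5 lower in all 5 pairs. Over all genes, 51.8% had a lower mean, 5.91% were lower at that p and 5% were lower in all 5 pairs. The summed level of the mural markers was 601.6 to 1008 CPM in controls and 310.0 to 598.9 in APP/PS1, without overlap. All 8 oligodendrocyte markers in the table had a lower mean, with a median of -2.42 and sums of 40.1 to 276.6 CPM in controls and 32.9 to 141.4 in APP/PS1. Ermn was at an adjusted count of 0 in APP/PS1 1 and 4, and Mag in APP/PS1 4, the library in which Kcnj16 and Kcna2 were at 0. Over the whole table, 30 genes were at 0 in APP/PS1 4 and 6 in control 4. Of 10 astrocyte markers, 9 had a lower mean, with a median of -0.96. Sums over the 10 were 173.9 to 215.1 CPM in controls and 172.1 to 216.0 in APP/PS1. Gja1, the astrocyte marker that was higher, stood far above the rest, at 7.09 log2 CPM in controls and 7.36 in APP/PS1. It makes up most of these sums, which therefore do not show the lower levels of the others. Of 6 neuron markers in the table, 5 had a lower mean, with a median of -0.34. Sums over the 6 were 111.9 to 133.9 CPM in controls and 112.6 to 135.8 in APP/PS1. They were likewise made up mostly by the marker that was not lower, Stmn2, at 6.65 log2 CPM in controls and 6.67 in APP/PS1. Oligodendrocyte precursor markers had 5 of 7 lower (median -0.74) and microglia markers 4 of 8 (median -0.0054). Choroid plexus markers had 3 of 4 lower (median -0.83) and erythroid markers 4 of 4 (median -1.16). At an unadjusted p under 0.05, 5 oligodendrocyte, 4 precursor, 3 astrocyte, 3 neuron and 3 choroid plexus markers were lower (5.91% of all genes). In all 5 pairs, 2 oligodendrocyte, 3 precursor, 1 astrocyte, 1 neuron and 2 choroid plexus markers were lower (5% of all genes). Microglia and erythroid markers had 0 by either measure. In bulk RNA, fewer cells of a type and less RNA per cell cannot be told apart, and the part that these cells have in the values of Kcnj10, Kcnj16, Kcna2, Kcna6, Kcnma1, Kcnmb1 and the other lower genes was not tested.

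The pairs differed in the channels and in the markers. Over the 28 genes the median difference was -0.92, -0.16, -0.35, -0.50 and -0.28 in pairs 1 to 5, with 14, 0, 7, 10 and 5 genes lower by over 1 log2 unit and 0 higher by that much in any pair. The shares of all genes lower by over 1 log2 unit were 3.88%, 0.723%, 2.6%, 2.52% and 1.89% in pairs 1 to 5, also highest in pair 1 and lowest in pair 2. For oligodendrocyte markers the medians were -4.09, 1.47, -1.82, -4.49 and -3.22, and for astrocyte markers -2.60, 0.55, -1.53, -0.74 and -0.20. For mural markers they were -1.62, -0.19, -0.62, -1.36 and -0.09. Microglia markers had 0.59, 0.18, -0.72, 0.07 and -0.57, and erythroid markers -1.58, -3.33, -3.98, 0.83 and 2.35. Oligodendrocyte precursor markers had -1.36, -0.33, -0.53, -0.96 and -0.04, choroid plexus markers -1.71, -0.80, -0.59, -1.01 and -0.09, and neuron markers -0.87, 0.07, -0.51, -0.38 and -0.21. Pairs 1 and 4 were thus the lowest for the channels and for mural, oligodendrocyte, oligodendrocyte precursor and choroid plexus markers. They were not both lowest for astrocyte, neuron, microglia or erythroid markers. In pair 2, 9 of the 28 channel genes were higher in APP/PS1, from Kcnj2 at 0.10 to Kcnip4 at 0.67. In pair 5 there were again 9, with Kcne4 highest at 0.37. Endothelial markers had medians between -0.05 and 0.12 in all pairs, and the 14 potassium channel genes with a mean of at least 1 log2 CPM had medians between -0.22 and 0.02.

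**Figure D4:**
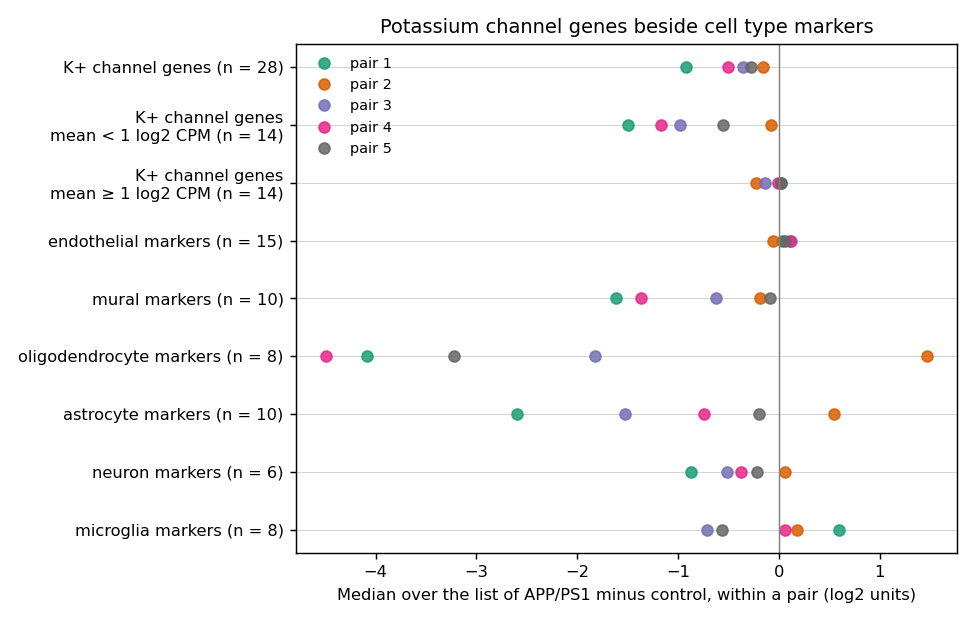
Median difference within each pair, APP/PS1 minus control in log2 units (horizontal axis), over the potassium channel genes, over their weakly and more strongly expressed subsets of 14 genes each, and over marker lists of other cell types; coloured points are pairs 1 to 5. Pair 2 is the point nearest 0 for the 28 genes and lies above 0 for oligodendrocyte and astrocyte markers, while pairs 1 and 4 are lowest for the 28 genes, mural and oligodendrocyte markers.

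Genes that work with potassium channels were read in the same fit. Of 21 genes of potassium transport (Na+/K+-ATPase subunits, K+-Cl- cotransporters, their kinases and channel partners), 15 had a lower mean in APP/PS1 (list median -0.13 in log2 fold change), and 7 had an unadjusted p under 0.05, all lower. Over all genes, 51.8% had a lower mean and 5.91% were lower at that p. Atp1b1, a β subunit of the pump, had a log2 fold change of -0.75 ± 0.11 (adjusted p = 0.303), and Atp1b2, a glial β subunit, -0.63 ± 0.23. Dpp6, a partner of Kv4 channels, had -0.95 ± 0.25, while Slc12a7, Tmem38a and Tmem38b lay between -0.31 and -0.16. Of 21 channels that depolarise or admit calcium, 15 had a lower mean (51.8% of all genes), with a median of -0.14. An unadjusted p under 0.05 was found for 7, all lower (5.91% of all genes). Among these 7 were the calcium channel genes Cacna1c (-0.78), Cacna1d (-0.20), Cacna1g (-0.94), Cacna1h (-0.96), Cacnb3 (-0.60) and Cacna2d1 (-0.84), each in log2 fold change. None of the genes in these 2 lists passed an adjusted p of 0.05 by limma.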

How the data were processed

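RNA of CD31+CD45- BECs was sequenced in 10 libraries. Reads were aligned by the authors to mm10 with STAR and counted with HTSeq-count, and edgeR was used to remove weakly expressed genes and to take log CPM, with ComBat named for the batch correction. Tool versions are not given in the sources used here. The authors deposited log2 CPM values. In every library 100% of them converted back to whole adjusted counts (tolerance 0.01, prior count 3), which ComBat on log CPM would not leave, so the correction used is not settled. Adjusted counts are not reads, and no counting interval was computed from them.

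In R 4.3.3, limma 3.58.1 (lmFit and eBayes, no trend, two-sided) was fitted to the log2 values of all genes with genotype and replicate number as a block (4 residual degrees of freedom) and a threshold of 0.05. Pairing came from the study's batch plot, with 5 batches where the sample labels give 4. Errors are SE of the fit or SD over libraries. A log2 fold change on this scale understates changes of low genes. The fit was tested on simulated data. Members and lists were chosen with earlier results of these data known. Named genes were members with an unadjusted p under 0.05 or 1 direction in all 5 pairs, the 3 largest differences each way, the 10 highest per kb, 8 channels known at the vessel wall and the extremes by level, and further members were given to complete each class. A few genes and sequences that enter the counts are not reported individually here. Annotation came from GENCODE M21.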

Additional observations from a re-analysis of the deposited data

Results flagged for a closer look

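In each group of 5 libraries, the lowest and the highest value of every potassium channel gene were compared with the nearest other library, and a value was singled out where that gap was over 0.71 of the group's range (Dixon's 95% value). Of 56 groups searched, 4 held such a library, and chance gives about 1 in 20 groups, or about 3 here. Kcnip4 was at -4.85 log2 CPM in control 3, with the nearest control at -2.18, and at -4.35 in APP/PS1 3, with the nearest APP/PS1 library at -2.22. The replicate 3 libraries also held the most genes at an adjusted count of 0 in the whole table, 185 in the control and 179 in APP/PS1. Kcna2 was at -4.85 in APP/PS1 4, with the nearest library at -1.51. Kcnj10 was at 0.34 in control 2, with the nearest control at 1.54. The cause of these gaps was not tested.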

How the results depend on the processing

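The number of genes called over all genes was 0 in the paired fit, 648 with no replicate block, 1 with the 4 batches of the labels and 0 to 5 on leaving out a pair (5 without replicate 2, 1 without replicate 5). Of the 28 potassium channel genes, 5 were called with no replicate block and 0 in every other alternative run. At an unadjusted p under 0.05, the 11 lower members became 17 with no replicate block. Lower genes over the whole table went from 5.91% to 13% there. The lower members became 2 of 14 with a mean of at least 1 log2 CPM, where 4.96% of all genes fitted were lower. On leaving out a pair they were 7 to 12. The 7 came without replicate 1, with 3.67% of all genes lower, and the 12 without replicate 2, with 8.38%. Higher members went from 0 to 2 with no replicate block, to 1 with the 4 batches, the variance trend, centred libraries or voom, and to between 0 and 1 on leaving out a pair. Over all 14106 genes, the higher ones at that p went from 300 to 1212 with no replicate block. They were 517 with the 4 batches, 323 with the trend, 407 with centred libraries, 322 by voom and 201 to 826 on leaving out a pair. Over all genes the 1133 at an unadjusted p under 0.05 became 3049 with no replicate block and 748 to 2008 on leaving out a pair, 748 without replicate 1, 750 without replicate 3 and 2008 without replicate 2. The 7 members lower in all pairs became 6 with centred libraries and 1 of 14 with a mean of at least 1 log2 CPM. They became 8 to 12 on leaving out a pair, with 12 without replicate 2. The 0 higher in all pairs became 2 with centred libraries and 0 to 2 on leaving out a pair. Members without a clear direction changed sign. Kcnj15 went to 0.02 with centred libraries, 0.00 to 2 decimals with median-of-ratios size factors, and -0.13 to 0.14 on leaving out a pair. Leaving out a pair gave -0.14 to 0.23 for Kcnip4, -0.23 to 0.09 for Kcnk5, -0.20 to 0.22 for Kcnn3 and -0.04 to 0.31 for Kcnn4. The small differences of Kcnj2 (0.11 without replicate 4), Kcna5 (-0.13 without replicate 1), Kcnk6 (0.01 without replicate 1) and Kcnq1 (0.04 without replicate 2) kept their sign. The share of lower genes among those at an unadjusted p under 0.05 was 73.5% in the paired fit, 60.3% with no replicate block, 58.9% without replicate 2 and 64.0% with centred libraries, which moved the median of all genes to 0.02. The cause of these shifts was not tested. With 5 pairs whose means had been made equal, 4 residual degrees of freedom limit what could be called, and the members with few adjusted counts are the least precise.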
